A study of Mus musculus with 4 samples.

Results

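The class mu glutathione transferases of the mouse were described by their 7 genes, Gstm1 to Gstm7, taken by symbol from the gene count tables of liver. These were 7 of 50584 gene symbols, and all 7 passed the filter on low counts that left 15647 genes for testing. The livers came from 14-week-old male mice of 2 inbred strains, DBA/2J (2 libraries) and C57BL/6J (2 libraries). All were labelled WT in genotype and fed chow, and the labels name no treatment. Poly(A)-selected RNA was sequenced, and the design speaks of a pair of mice per strain, so each library was taken as 1 animal. With 2 libraries per strain, p-values of single genes rest on the spread between these few animals. They also borrow from the spread over all tested genes.

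Class mu transferases are soluble enzymes that work as dimers. They join glutathione, a small sulphur-containing peptide, to reactive electrophiles such as epoxides and the aldehydes and quinones that arise from drugs, toxins and lipid oxidation. The conjugates are then pumped out of the hepatocyte and trimmed to mercapturates. Several mouse class mu genes are known to respond to NRF2, a transcription factor of the response to electrophiles, and to the xenobiotic receptor CAR.

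The 7 genes lay side by side on chromosome 3 (GRCm38), within 149074 bases at chr3:107895821-108044894. In the order of the chromosome they were Gstm5, Gstm7, Gstm6, Gstm3, Gstm2, Gstm1 and Gstm4. Gstm5 was on the forward strand and the other 6 were on the reverse strand. The main annotated transcript of each had 8 exons. It coded for 218 amino acids in 6 members and for 224 in Gstm5.

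Gstm1 and Gstm3 were the closest pair, with 89.4% of their 654 aligned coding bases identical. Gstm5 stood farthest from the rest, at 69.9% to 73.1%. The other pairs lay between 79.1% and 86.4%. The longest uninterrupted coding run shared by any pair was 125 bases, between Gstm3 and Gstm6 (coding bases 169 to 293 in both). That of Gstm1 and Gstm3 was 112 bases, coding bases 389 to 500 in both. It crosses a splice junction, at chr3:108014820-108015012 in Gstm1 and chr3:107966154-107966346 in Gstm3. It is shown because a read of 100 bases can fall wholly inside it and then carries nothing that tells the 2 genes apart.
Gstm1 and Gstm3: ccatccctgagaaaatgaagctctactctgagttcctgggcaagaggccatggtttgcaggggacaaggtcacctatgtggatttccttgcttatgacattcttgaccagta

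**Figure D1:**
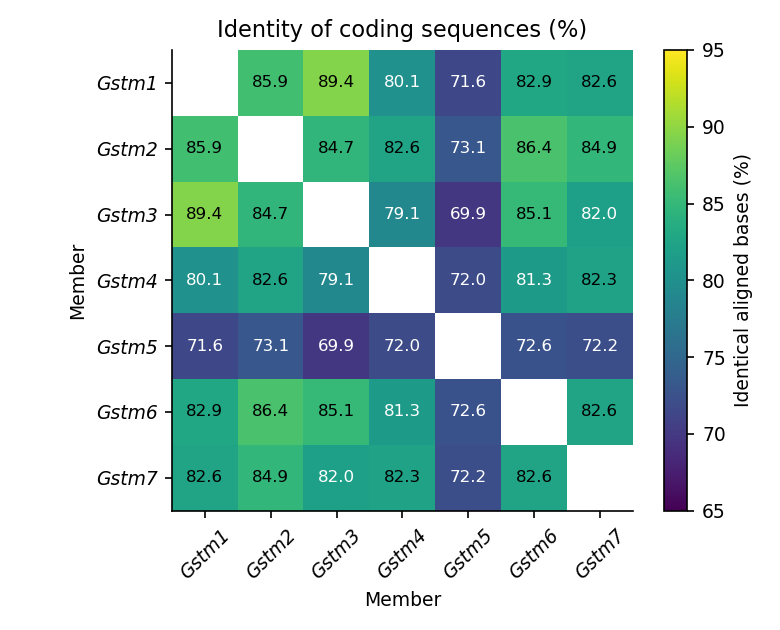
Percentage of identical bases between the aligned coding sequences of each pair of members; both axes list the 7 genes. Gstm1 with Gstm3 has the highest value, 89.4%, and the row and column of Gstm5 hold the lowest, 69.9% to 73.1%.

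The next stretch is shown because it is where Gstm3 differed most from its nearest member, so that reads from it can be assigned. It covers 60 coding bases near the end of the coding sequence (coding bases 593 to 652, and 602 to 661 in Gstm5), which in Gstm3 lie at chr3:107964212-107964271. Each sequence is on the coding strand of GRCm38, read from the GENCODE M21 transcripts, and lies in a single exon. Capitals mark the 39 positions at which the 7 genes are not all alike.
Gstm1: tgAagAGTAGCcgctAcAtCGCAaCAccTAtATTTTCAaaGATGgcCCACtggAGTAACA
Gstm2: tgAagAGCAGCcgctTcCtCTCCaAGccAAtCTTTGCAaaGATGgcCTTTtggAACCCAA
Gstm3: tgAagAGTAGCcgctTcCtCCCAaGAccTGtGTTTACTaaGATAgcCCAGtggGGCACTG
Gstm4: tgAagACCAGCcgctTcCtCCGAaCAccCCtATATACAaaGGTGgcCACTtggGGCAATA
Gstm5: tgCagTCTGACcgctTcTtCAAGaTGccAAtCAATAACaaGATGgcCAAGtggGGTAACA
Gstm6: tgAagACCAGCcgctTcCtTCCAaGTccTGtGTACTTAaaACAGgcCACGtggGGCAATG
Gstm7: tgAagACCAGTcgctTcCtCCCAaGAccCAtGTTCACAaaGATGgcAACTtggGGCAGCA
In this stretch Gstm3 differed from Gstm1 and from Gstm7 at 15 positions each, from Gstm4 and Gstm6 at 16 each, from Gstm2 at 19 and from Gstm5 at 24.

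How far the members can be told apart by reads was also counted over whole transcripts. Of the 1212 windows of 100 bases in the Gstm3 transcripts, 167 (13.8%) occurred unchanged in a transcript of another gene. These included 90 windows in Gm8834, 39 in Gstm2-ps1, 26 in Gstm6 and 20 in Gstm1. For Gstm1 the share was 5.86% (92 of 1570 windows), for Gstm5 5.58%, for Gstm6 1.10% and for Gstm2 0.357%. Gstm4 and Gstm7 had 0 such windows. A further count took windows within 5 bases of another class mu member and left out all other genes, so its shares are of another kind. They were 24.9% for Gstm3 and 19.5% for Gstm1, against 0.536% for Gstm4 and 0.294% for Gstm7. Gstm5 had 0 windows that close to another member, and its exact matches were to 4933431E20Rik, an antisense transcript that overlaps 178 bases (13.9%) of its exons. By these shares, the counting of reads, whether left out or given to another gene, is least certain for Gstm3 and Gstm1. It is most certain for Gstm4 and Gstm7. Gm8834 is not analysed here. The pseudogene Gstm2-ps1 on chromosome 5 had 63 and 49 counts in DBA/2J livers, against 86 and 55 in C57BL/6J livers.

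Levels are given in CPM, the counts scaled to a common library size with the TMM factors of edgeR. Differences are log2 values of DBA/2J over C57BL/6J with their standard errors (SE). A gene was called where the Benjamini-Hochberg adjusted p of edgeR's quasi-likelihood test over all 15647 genes was below 0.05. By this rule 2842 genes were called (18.2% of those tested), 1454 higher in DBA/2J (9.29%) and 1388 lower (8.87%). The median log2 difference over all tested genes was 0.0077. Far fewer of all tested genes were called with either DBA/2J library left out, and more with either C57BL/6J library left out. Counts of called members, markers or list genes with 1 library left out are to be read beside this general shift.

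The libraries held between 48096706 and 52520737 counts. Class mu genes took 0.188% and 0.197% of the counts in DBA/2J livers, and 0.221% and 0.174% in C57BL/6J livers. Of 10 hepatocyte markers checked against the tissue label, all were tested, and albumin alone took 5.91% to 6.82% of counts. Within the hepatocyte list 1 gene was lower in DBA/2J, the receptor gene Asgr1 (log2 difference -0.40, edgeR adjusted p = 0.0413), and 0 were higher. The Asgr1 call was lost with library totals alone (0.0564), with no low-count filter (0.058) and with a replicate block (0.0608), all edgeR adjusted p, while DESeq2 gave 1 hepatocyte gene higher and 3 lower. Of 25 markers of other liver cells, 23 were tested, with 2 higher in DBA/2J, 2 lower and 19 not called. Their summed level was 385 and 453 CPM in DBA/2J livers, against 377 and 283 CPM in C57BL/6J livers. The called ones are given with their log2 differences. Higher were the stellate cell gene Reln (1.30) and the endothelial scavenger receptor gene Stab2 (0.40). Lower were the lymphatic and sinusoidal endothelial gene Lyve1 (-1.16) and the macrophage receptor gene Marco (-2.97). The Stab2 call was lost with no low-count filter and with a replicate block, and the Marco call with no low-count filter. DESeq2 gave 3 genes of other cells higher and 3 lower. With either DBA/2J library left out, 0 genes of either marker list were called. Leaving out C57BL/6J replicate 1 gave 1 hepatocyte gene lower, and 4 genes of other cells higher and 2 lower. Leaving out C57BL/6J replicate 2 gave 2 hepatocyte genes lower, and 2 genes of other cells higher and 5 lower. C57BL/6J replicate 1 stood apart in the acute-phase gene Saa1, at 1968 CPM against 138 CPM in C57BL/6J replicate 2, while DBA/2J livers had 99.3 and 35.9 CPM. The part of these markers and of that library in the class mu values was not tested. In whole liver, fewer cells of a type and less RNA per cell cannot be told apart.

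Of the 7 class mu genes, 1 was called higher in DBA/2J (Gstm3, 2.25-fold), 0 were called lower and 6 were not called. Against a background in which 18.2% of tested genes were called, 1 of 7 is near the general rate. By the direction of the estimate, 4 members were above 0 and 3 below. The median log2 difference was 0.02 over the 7, and -0.01 over the 6 members other than Gstm3. The strain ranges of 4 members did not overlap (Gstm1, Gstm3, Gstm5 and Gstm7), while 63.8% of all tested genes had ranges that did not overlap. Called and at least 2-fold apart was again Gstm3, a class that held 7.74% of all tested genes. With either DBA/2J library left out, 0 members were called. Leaving out C57BL/6J replicate 1 gave 2 (Gstm3 and Gstm6), and leaving out C57BL/6J replicate 2 gave 2 (Gstm3 and Gstm1).

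Gstm3 is a class mu enzyme whose mRNA in mouse liver is known to rise with NRF2 and CAR activators. It had 10122 and 9906 counts in DBA/2J livers, against 4859 and 3639 counts in C57BL/6J livers. Scaled, these were 209.8 and 179 CPM in DBA/2J livers and 99.7 and 72.9 CPM in C57BL/6J livers. Both DBA/2J livers lay above both C57BL/6J livers, with the nearest values of the strains well apart. The means were 194 ± 21.7 CPM in DBA/2J and 86.3 ± 18.9 CPM in C57BL/6J (SD, n = 2 each). The log2 difference was 1.17 (SE 0.17, 95% interval 0.75 to 1.59), with an edgeR adjusted p of 0.0104. The call was lost on leaving out DBA/2J replicate 1 (log2 1.04, edgeR adjusted p = 0.122) or DBA/2J replicate 2 (1.28, 0.081). It held on leaving out C57BL/6J replicate 1 (1.41, edgeR adjusted p = 1.38e-04) or C57BL/6J replicate 2 (0.96, 7.54e-04).

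Gstm3 was also set beside the 1101 tested genes whose exon length lay within 20% of its own 1311 bases. Their median log2 difference was -0.17, with quartiles of -0.47 and 0.27, and 24.1% of them were called. For the like-length genes of the other members the median ranged from -0.18 to -0.12. The value of Gstm3 was above the upper quartile of genes of its length.

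**Figure D2:**
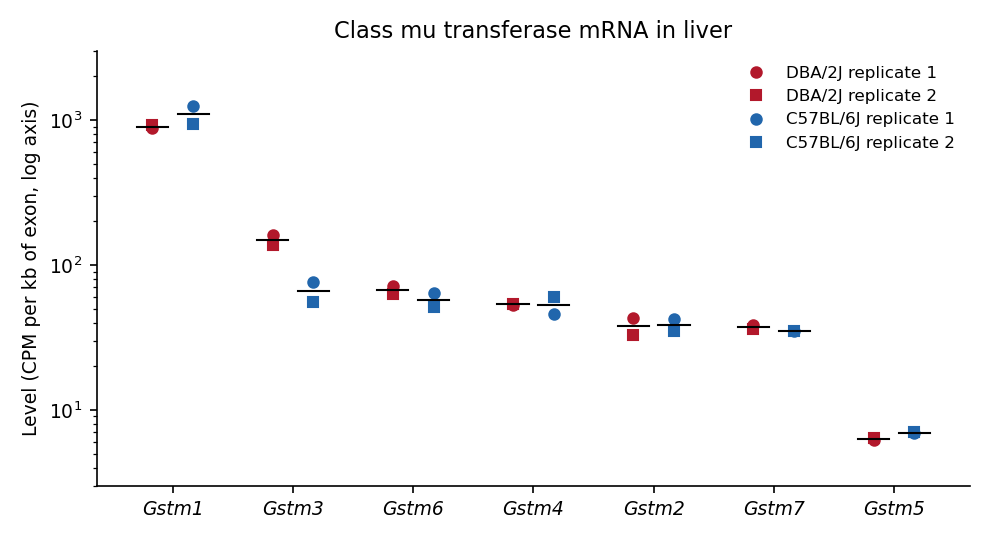
Level of each class mu gene in each library, in CPM per kb of exon on a log axis; colours mark DBA/2J and C57BL/6J, and points are single livers. The 2 strains are interleaved or close for 6 members, while both DBA/2J points of Gstm3 (160.04 and 137) lie above both C57BL/6J points (76.0 and 55.6).

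Gstm1 encodes a major class mu subunit of mouse liver and was the most abundant member by far. It had 62417 and 74636 counts in DBA/2J livers, against 89575 and 68938 in C57BL/6J livers. Scaled, these were 1294 and 1349 CPM in DBA/2J and 1838 and 1381 CPM in C57BL/6J. Both C57BL/6J livers were above both DBA/2J livers, though C57BL/6J replicate 2 was close to DBA/2J replicate 2. The means were 1322 ± 39.1 CPM in DBA/2J and 1609.6 ± 323 CPM in C57BL/6J (SD, n = 2 each). The log2 difference of -0.28 (SE 0.17, 95% interval -0.71 to 0.14) did not pass the test (edgeR adjusted p = 0.295). It passed only without C57BL/6J replicate 2 (-0.48, edgeR adjusted p = 0.0496), when the high C57BL/6J replicate 1 stood alone for its strain. That library is also the one with the high Saa1 level, and its part in the Gstm1 value was not tested.

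Gstm6 followed Gstm1 and Gstm3 in abundance per length. It had 142 and 126 CPM in DBA/2J livers, against 128 and 101 CPM in C57BL/6J livers. The ranges overlapped narrowly, since DBA/2J replicate 2 fell just under C57BL/6J replicate 1. Its log2 difference was 0.22 (SE 0.13, 95% interval -0.11 to 0.56; edgeR adjusted p = 0.29), and it passed the test only without C57BL/6J replicate 1 (0.40, edgeR adjusted p = 0.0261).

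Gstm4 had 90.6 and 92.1 CPM in DBA/2J livers, against 78.2 and 102 CPM in C57BL/6J livers. The C57BL/6J livers thus fell on either side of a closely matched DBA/2J pair. The log2 difference was 0.02 (SE 0.14, 95% interval -0.32 to 0.35; edgeR adjusted p = 0.934). C57BL/6J replicate 1, the higher of its strain in Gstm1, Gstm2, Gstm3 and Gstm6, was the lower one in Gstm4.

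Gstm2 had 71.7 and 54.9 CPM in DBA/2J livers, against 71.6 and 58.3 CPM in C57BL/6J livers. In each strain replicate 1 was the higher, and the strain ranges lay almost on top of each other. The log2 difference was -0.04 (SE 0.16, 95% interval -0.44 to 0.36; edgeR adjusted p = 0.89).

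Gstm7 had 61.7 and 58.2 CPM in DBA/2J livers, against 55.7 and 55.8 CPM in C57BL/6J livers. The ranges did not overlap, but the gap was small beside the level. The log2 difference was 0.10 (SE 0.08, 95% interval -0.09 to 0.30; edgeR adjusted p = 0.393), the narrowest interval of the 7 members.

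Gstm5 is the most divergent mouse member. It had 7.94 and 8.21 CPM in DBA/2J livers, against 8.80 and 8.98 CPM in C57BL/6J livers. The DBA/2J livers were both below the C57BL/6J livers by a margin of under 1 CPM. The log2 difference was -0.14 (SE 0.13, 95% interval -0.46 to 0.18; edgeR adjusted p = 0.488). The antisense transcript over its exons, 4933431E20Rik, had 4.001 and 3.65 CPM in DBA/2J livers and 2.22 and 2.64 CPM in C57BL/6J livers (log2 0.65, edgeR adjusted p = 0.0828). The counting names no strand option, so reads of the 178 shared bases cannot be assigned to one of the pair.

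**Figure D3:**
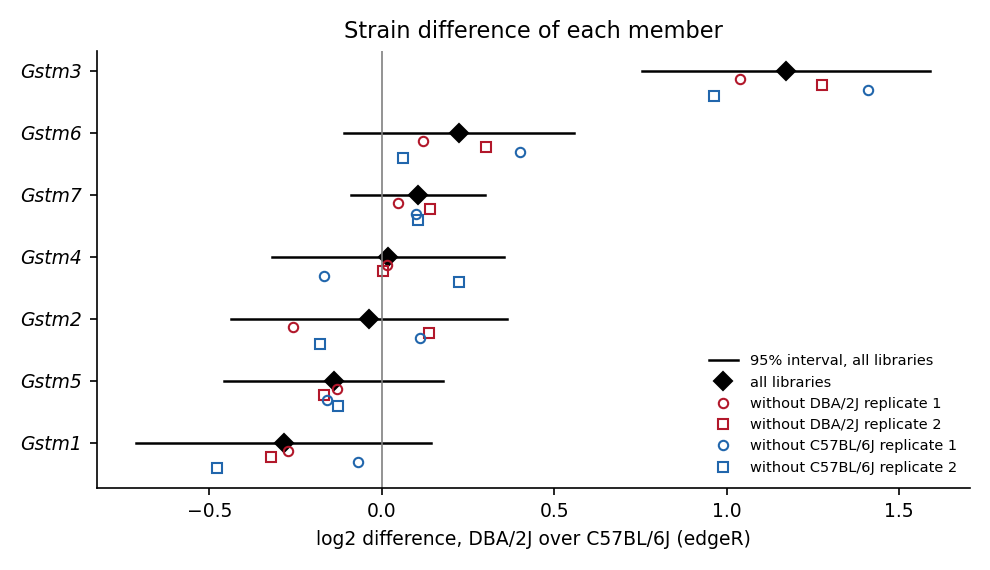
The log2 difference of each member, DBA/2J over C57BL/6J, from edgeR; black diamonds and bars give the estimate and 95% interval with all libraries, and open symbols the estimate with 1 library left out. The interval of Gstm3 runs from 0.75 to 1.59, and the other 6 intervals include 0.

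Per kilobase of exon, the strain means had the same order in both strains: Gstm1, Gstm3, Gstm6, Gstm4, Gstm2, Gstm7 and Gstm5. Gstm1 averaged 897 CPM per kb in DBA/2J and 1093 in C57BL/6J. Gstm3 followed with 148 CPM per kb in DBA/2J and 65.8 in C57BL/6J. The 4 members of middle level averaged 37.5 to 67.4 CPM per kb in DBA/2J and 34.8 to 57.7 in C57BL/6J. Gstm5 came last with 6.32 CPM per kb in DBA/2J and 6.96 in C57BL/6J. Single libraries departed from it. In C57BL/6J replicate 2, Gstm4 (59.9) was above Gstm3 (55.6) and Gstm6 (50.9), and Gstm7 (34.85) was just above Gstm2 (34.75). In DBA/2J replicate 2, Gstm7 (36.4) was above Gstm2 (32.7). In DBA/2J the neighbours in this order had separate ranges except Gstm2 and Gstm7. In C57BL/6J, Gstm3 overlapped Gstm6 and Gstm4, Gstm6 overlapped Gstm4, and Gstm2 overlapped Gstm7.

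The summed class mu level was 1877 and 1868 CPM in DBA/2J livers, against 2280.1 and 1781 CPM in C57BL/6J livers. The DBA/2J sums lay between the C57BL/6J ones, so the total did not separate the strains. Gstm1 supplied 68.9% and 72.2% of the sum in DBA/2J and 80.6% and 77.6% in C57BL/6J. Gstm3 supplied 11.2% and 9.59% in DBA/2J and 4.37% and 4.09% in C57BL/6J. The Gstm6 share was 7.56% and 6.75% in DBA/2J and 5.62% and 5.68% in C57BL/6J. The strain ranges of these 3 shares did not overlap, as was the case for the levels of 63.8% of all tested genes, and the shares are parts of one sum. Without Gstm1, the other 6 members summed to 584 and 519 CPM in DBA/2J and 442 and 399 CPM in C57BL/6J.

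**Figure D4:**
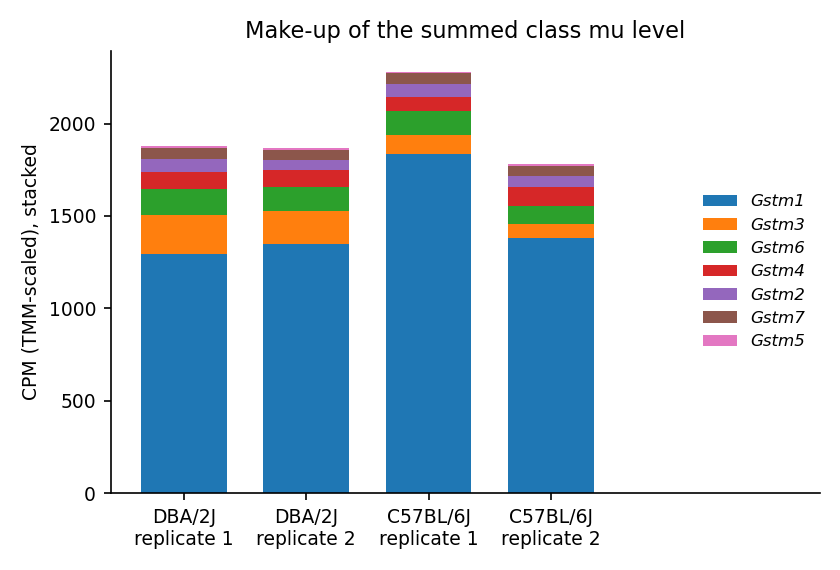
Stacked CPM of the 7 members in each library, DBA/2J livers on the left. The full bars reach 1877 and 1868 CPM in DBA/2J and 2280.1 and 1781 CPM in C57BL/6J, while the Gstm3 segment is 209.8 and 179 CPM in DBA/2J and 99.7 and 72.9 CPM in C57BL/6J.

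The ratio of Gstm3 to Gstm1 does not depend on the scaling between libraries. There were 16.2 and 13.3 Gstm3 counts per 100 Gstm1 counts in DBA/2J livers, against 5.42 and 5.28 in C57BL/6J livers. The ratio was closely matched between the C57BL/6J livers, although C57BL/6J replicate 1 was the higher in both genes. The log2 ratio differed by 1.46 between the strains. An exact two-sided permutation test gave p = 0.333, the smallest value that 2 against 2 allows. How reads with a match in several genes bear on this ratio was not tested.

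The genes whose pattern over the 4 libraries was most like that of Gstm3 were found by the distance between centred log2 CPM, among 7900 tested genes averaging 10 CPM or more. The nearest was Spon2, on chromosome 5, at a distance of 0.101, with 16.2 and 12.6 CPM in DBA/2J livers and 7.63 and 5.49 CPM in C57BL/6J livers. The next were Shank2 on chromosome 7 (0.159) and the acute-phase gene Apcs on chromosome 1 (0.162). They lie on other chromosomes than Gstm3, and with 4 libraries such likeness is a description.

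The genes around the cluster were read from the same test. Within 500 kb of the 7 members the files list 54 other symbols, of which 17 were tested. Among these, 1 was called higher in DBA/2J, 1 lower and 15 not called, with a median log2 difference of 0.05, so the share called was below the 18.2% of all tested genes. The largest difference among them was not called, that of 5330417C22Rik, 410800 bases away, singled out after its values were seen. It had 1.87 and 2.46 CPM in DBA/2J livers, against 1.11 and 0.681 CPM in C57BL/6J livers (log2 1.28, SE 0.33, edgeR adjusted p = 0.0514). The one that rose was Sort1, a sorting receptor of the secretory pathway, with 50.7 CPM in each DBA/2J liver, against 36.9 and 35.2 CPM in C57BL/6J livers (log2 0.49, SE 0.08, edgeR adjusted p = 0.0143). The one that fell was Psma5, a proteasome subunit gene, with 38.8 and 39.4 CPM in DBA/2J livers and 52.4 and 47.7 CPM in C57BL/6J livers (log2 -0.36, SE 0.09, edgeR adjusted p = 0.0435). Sort1 lies 239188 bases and Psma5 212032 bases from the span of the members. Neither call held when a DBA/2J library was left out (edgeR adjusted p of 0.18 and 0.156 for Sort1 and of 0.284 and 0.257 for Psma5, for replicates 1 and 2). That of Psma5 was also lost with library totals alone (0.0975), with no low-count filter (0.1) and with a replicate block (0.0699). Both were called with either C57BL/6J library left out. The antisense transcript 4933431E20Rik, which overlaps the edge of the cluster at Gstm5, was not called (log2 0.65). Nor were the nearest tested genes lying wholly outside the cluster. On the Gstm5 side these were Csf1, 135352 bases away (log2 -0.82), and Ahcyl1, 199261 bases away (-0.07). On the Gstm4 side they were Ampd2 (-0.11) and the predicted gene Gm12500 (0.32). Eps8l3, a protein-coding gene 2921 bases from Gstm5, was too low to test, with 3 and 0 counts in DBA/2J livers and 0 in both C57BL/6J livers.

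**Figure D5:**
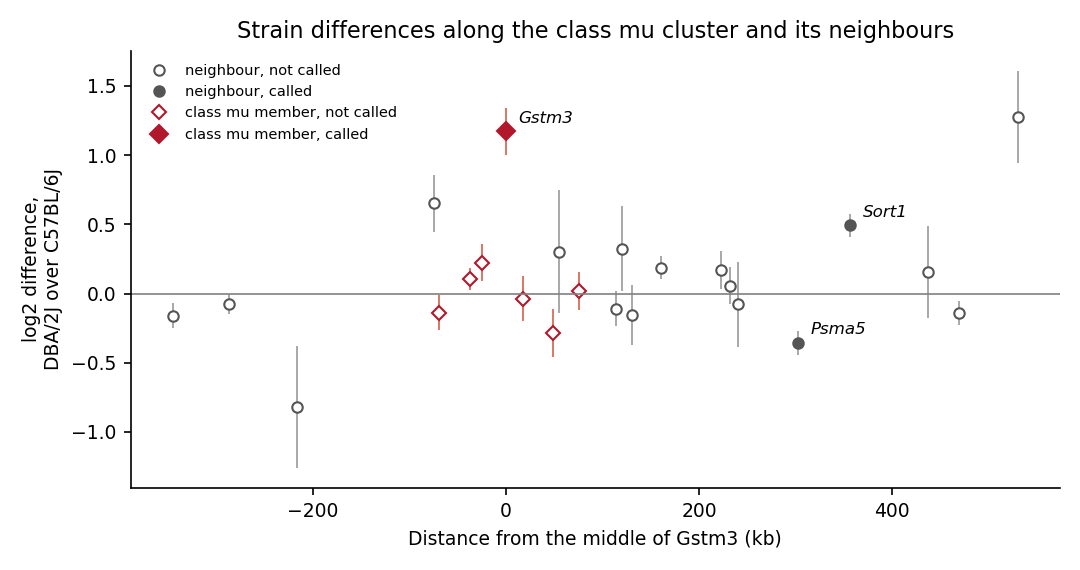
Log2 difference of the 7 members (diamonds) and of 17 tested neighbours (circles), DBA/2J over C57BL/6J, against distance from the middle of Gstm3 in kb; filled symbols passed the test and bars are SE. Gstm3 at 1.17 is the only filled diamond, and Sort1 (0.49) and Psma5 (-0.36) are the filled circles.

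The other genes of the glutathione and xenobiotic pathways were counted in 7 lists. Together these held 118 genes, 108 of them tested, with 7 higher in DBA/2J, 24 lower and a median log2 difference of -0.19. The share called, 28.7%, compares with 18.2% of all tested genes. Each library was left out in turn, in the order DBA/2J replicate 1, DBA/2J replicate 2, C57BL/6J replicate 1 and C57BL/6J replicate 2. The number called fell with either DBA/2J library left out and rose with either C57BL/6J library left out. The same shift was seen over all tested genes, so it is not a result about these lists.

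The list of cytosolic transferases of other classes also held the kappa enzyme gene, whose product is not cytosolic. Of its 15 tested genes, 1 was higher in DBA/2J, 3 were lower and 11 were not called, with a median log2 difference of -0.29. The share called was 26.7%, beside 18.2% of all tested genes. Those that fell were the omega enzyme gene Gsto1 (log2 -0.68, edgeR adjusted p = 0.00669), the theta enzyme gene Gstt1 (-0.61, 0.00823) and the kappa enzyme gene Gstk1 (-0.42, 0.018). The Gstk1 call was lost with no low-count filter. Gstt1 had 172 and 169 CPM in DBA/2J livers, against 267 and 253 CPM in C57BL/6J livers. The one that rose was Hpgds, a sigma-class enzyme that makes prostaglandin D, at under 1 CPM in every library (log2 1.38, edgeR adjusted p = 0.0395). Its call was lost with no low-count filter (edgeR adjusted p = 0.0678), with a replicate block (0.0657) and under DESeq2 (DESeq2 adjusted p = 0.0954), and it was not tested at a minimum count of 50. Among 4 tested membrane-bound transferases and relatives, Mgst3 rose and Mgst1 fell. Mgst3 had 23.1 and 26.2 CPM in DBA/2J livers, against 9.97 and 9.98 CPM in C57BL/6J livers (log2 1.31, edgeR adjusted p = 0.00237). The log2 difference of Mgst1 was -0.65 (edgeR adjusted p = 0.0475), and its call was lost with RLE size factors (0.0541) and with a replicate block (0.0811). In the leave-one-out order given above, 0, 0, 7 and 4 of the other cytosolic genes were called lower and 0, 0, 0 and 1 higher. Of the membrane-bound ones, 0, 0, 2 and 1 were called lower and 1, 0, 1 and 1 higher.

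The supply of glutathione was covered by 19 tested genes of synthesis and recycling. Of these, 2 were higher in DBA/2J, 4 lower and 13 not called (31.6% called, median log2 -0.16). The 2 subunits of the rate-limiting ligase were called in opposite directions. The modifier subunit gene Gclm had a log2 difference of -0.58 (edgeR adjusted p = 0.00911). The catalytic subunit gene Gclc had 409.8 and 391 CPM in DBA/2J livers, against 306 and 239 CPM in C57BL/6J livers (log2 0.56, edgeR adjusted p = 0.0429). The other one that rose was Slc3a2, the heavy chain of amino acid transporters (0.54). The glutathione peroxidase genes Gpx3 (-1.02), Gpx7 (-1.33) and Gpx4 (-0.35) fell. In leave-one-out order, 0, 0, 4 and 6 genes were called lower and 0, 0, 3 and 5 higher. The balance turned with library totals alone, which gave 5 higher and 3 lower. DESeq2 gave 4 higher and 5 lower, and the fit with no low-count filter gave 0 higher and 2 lower.

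Downstream of conjugation, 18 tested genes of conjugate export and mercapturate formation included 0 that rose and 2 that fell (median log2 -0.06; 11.1% called). One was Nat8, which acetylates cysteine conjugates to mercapturates, with 5.62 and 5.06 CPM in DBA/2J livers and 15.9 and 27.7 CPM in C57BL/6J livers (log2 -2.03, edgeR adjusted p = 0.00887). The other was the gamma-glutamyltransferase gene Ggt6 (-0.55, edgeR adjusted p = 0.0228), a call that was lost with no low-count filter. The canalicular exporter gene Abcc2 (-0.45, edgeR adjusted p = 0.061) and the basolateral exporter gene Abcc4 (-0.91, 0.0541) were not called in the fit to all libraries. Abcc2 was called under DESeq2 (DESeq2 adjusted p = 0.00865) and on leaving out C57BL/6J replicate 1 (edgeR adjusted p = 0.009). Abcc4 was called at a minimum count of 50 (edgeR adjusted p = 0.0496) and on leaving out C57BL/6J replicate 2 (0.0192). In leave-one-out order, 0, 0, 3 and 3 genes were called lower and 0, 0, 0 and 3 higher.

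Among 18 tested regulators of xenobiotic responses, 1 rose, 3 fell and 14 were not called (22.2% called, median log2 -0.21). The glucocorticoid receptor gene Nr3c1 rose (log2 0.52), and the pregnane X receptor gene Nr1i2 (-0.46), the small Maf gene Maff (-1.33) and Cebpb (-1.54), a factor of the acute-phase response, fell. Cebpb had 16.7 and 15.0 CPM in DBA/2J livers, against 60.8 and 31.2 CPM in C57BL/6J livers, so that C57BL/6J replicate 1, the library with high Saa1, was also the highest here. In leave-one-out order, 0, 0, 4 and 7 regulators were called lower and 0, 0, 1 and 4 higher. With no low-count filter 0 were called lower.

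The list of NRF2 targets did not hold the class mu genes. Of its 25 tested members, 1 was higher in DBA/2J (Gclc), 8 were lower and 16 were not called (36% called, median log2 -0.36). Examples of those that fell are the carbonyl reductase gene Cbr1 (log2 -0.69, edgeR adjusted p = 0.00758), the thioredoxin gene Txn1 (-0.60, 0.0084) and the malic enzyme gene Me1 (-1.11, 0.013). Of 15 tested CAR targets, 2 were higher (Cyp2c55 and Cyp2c29), 4 were lower (Cyp2c50, Por, Sult1d1 and Ugt1a1) and 9 were not called. In this list 40% were called, with a median log2 difference of -0.40. Of all tested genes, 18.2% were called, 9.29% higher and 8.87% lower. Gstm3, at 1.17, was higher in DBA/2J, as were Gclc, Cyp2c55 and Cyp2c29, while 8 NRF2 targets and 4 CAR targets were lower. The part of NRF2 or CAR in the Gstm3 value was not tested. The Cyp2c genes have near-identical copies, so the counting of their reads is uncertain. In the same leave-one-out order, 0, 1, 9 and 12 NRF2 targets and 1, 0, 4 and 8 CAR targets were called lower, and 0, 0, 1 and 1 NRF2 targets and 0, 0, 2 and 4 CAR targets were called higher. The NRF2 targets called lower were 5 with library totals alone and 5 with no low-count filter, and the CAR targets called lower were 2 with no low-count filter and 7 with a replicate block.

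The 300-base promoters of all 7 members were looked up in RefSeq (GRCm38.p6). Each window ran from 250 bases before a start to 50 bases after it. Gstm6 had 3 such windows, and Gstm1, Gstm4 and Gstm7 had 2 each. For each gene only the window whose start lay nearest the gene start used in counting was searched. The antioxidant response element, searched as TGACNNNGC on both strands, occurred in the window of 1 member, Gstm5, and in 12.4% of 32851 promoters. The letters TATAAA occurred in the windows of Gstm5 and Gstm7, and in 13.6% of all promoters. The window of Gstm3 held neither run of letters. The start it was built on lay 109 bases from the gene start used in counting, the farthest of the 7. Sites outside the searched windows were not looked for.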

How the data were processed

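The deposited values were raw counts of reads per gene symbol, made by the authors with featureCounts 2.0.1 on Ensembl 88 exons (GRCm38), per the file headers. The submitters' processing notes name STAR 2.4.0g1, featureCounts 1.5.2 and mm10. Reads were single-end and 100 bases long per the labels, although the header carries a paired-end option. No option for strand or multiply aligned reads is given in the headers. DBA/2J reads that differ from the C57BL/6J-derived reference can be lost, and the size of this loss was not tested. Counts were tested with edgeR 4.0.16 in R 4.3.3 (quasi-likelihood, legacy=FALSE, TMM, filterByExpr minimum count 10, strain as sole term). DESeq2 1.42.0, other scalings and filters, a replicate block and leaving out each library were alternatives. The test was checked on simulated counts. Shared sequence was counted in GENCODE M21 transcripts. Named were all members, up to 4 genes per list with the lowest adjusted p, called and nearest neighbours, and the 3 genes most like Gstm3. Gclc, Gpx4, Cyp2c29, Ugt1a1, Saa1, Eps8l3, 5330417C22Rik and 4933431E20Rik were named after their values were seen. Members and lists were chosen with earlier results of these data known.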

Additional observations from a re-analysis of the deposited data

How the results depend on the processing

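Leaving out each library in turn moved the number of genes called over all tested genes most, to 292 to 4905 around 2842. The same step gave 0 to 2 class mu members called, 0 to 4 neighbours and 1 to 57 pathway genes. It gave log2 differences of 0.96 to 1.41 for Gstm3, -0.48 to -0.069 for Gstm1, -0.26 to 0.14 for Gstm2, -0.17 to 0.22 for Gstm4 and 0.062 to 0.40 for Gstm6. A lone library of a strain was assumed to vary like the other strain. The C57BL/6J replicates were less alike than the DBA/2J ones (r of log2 CPM 0.9902 against 0.9966). Without the low-count filter 1516 genes, 1 neighbour and 16 pathway genes were called. Same-numbered replicates were not paired (correlation of deviations 0.047); with the replicate block 2395 genes and 1 neighbour were called, and Gstm3 stayed at 1.18 (edgeR adjusted p = 0.00213). Widening the window to 1000 kb gave 4 called neighbours, but the number tested in it was not counted. Their share therefore cannot be set against that of all tested genes. Gstm3 was called under every setting that kept all 4 libraries, with log2 values of 1.17 to 1.25. With library totals alone the median of all genes was 0.09, the summed DBA/2J level was 1925 CPM, Gstm2 turned to 0.040 and Ahcyl1 to 0.0064. With 1 library left out, Ampd2 ranged from -0.26 to 0.054, Csf1 from -1.37 to 0.072 and Alox5ap from -0.28 to 1.40; the sign turned for Csf1 on leaving out C57BL/6J replicate 1 and for the other pair on leaving out C57BL/6J replicate 2. The causes were not tested. Hpgds rests on low counts.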
